A study of Mus musculus with 2 samples.

Results

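Nonclassical monocytes were picked out of the immune cells of B16-F10 melanoma by the UMIs (unique molecular identifiers, each marking 1 captured transcript) of a few genes. A member had mitochondrial transcripts under 10% of its UMIs, at least 1 UMI of Csf1r, at least 3 UMIs summed over Ace, Adgre4, Treml4 and Ceacam1, at most 2 UMIs summed over C1qa, C1qb and C1qc, and none of Cd3d, Cd3e or Cd3g. This left 163 of 12078 cells, 1.35% (95% Clopper-Pearson interval 1.15% to 1.57%), of which 86 of 6284 came from the Irg1+/+ library and 77 of 5794 from the Irg1-/- library. The genes of the gate are described with no test, since they chose the cells.

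Nonclassical (Ly6C-low) monocytes of the mouse arise from classical Ly6C-high monocytes and depend on the nuclear receptor Nr4a1. They are known for crawling along the inner wall of blood vessels by the integrin LFA-1, whose alpha chain is made from Itgal, and for surviving on signals through the fractalkine receptor Cx3cr1. Their surface carries CD43, the product of Spn, while classical monocytes carry Ly6C and the chemokine receptor Ccr2 and give rise to many of the macrophages of a tumor.

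The series holds 2 single-cell libraries, made on the BD Rhapsody platform, which reads 3′ ends. CD45+ cells were sorted from subcutaneous tumors of B16-F10, a melanoma line of C57BL/6 mice, at day 10 after 200000 cells were injected. The hosts were Irg1+/+ mice, with an intact Irg1 gene, or Irg1-/- mice, which lack the enzyme that makes itaconate. Tumors of 3 mice were pooled for each library, so each genotype was 1 sample. Any difference between the libraries was therefore given without a p-value, and genotype, pool and library cannot be told apart.

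Depth was alike for the members of both libraries. The Irg1+/+ members held 344086 UMIs in all, with 586 to 8439 a cell and a median of 3732, and the Irg1-/- members held 344440, with 758 to 9589 a cell and a median of 4096. The median number of genes a cell was 1793 and 1846. Between the libraries 36 cell barcodes were shared, but none of them belonged to a member.

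Irg1 itself, listed as Acod1 (GRCm38, chr14:103046977-103056573, plus strand), was present in both libraries. Over all kept cells it stood at 87.8 CPM (UMIs of a gene for each 1000000 UMIs of the sum; 95% Poisson interval 85.0 to 90.7) in the library labelled Irg1+/+ and at 108 CPM (104 to 111) in the library labelled Irg1-/-. Among nonclassical monocytes the levels were 119 CPM (85.5 to 162; 41 UMIs in 13 cells) and 75.5 CPM (49.3 to 111; 26 UMIs in 11 cells), and their intervals overlapped. Counts of 3′ ends may not report a deletion elsewhere in the gene, so they do not check the genotype. The cause of these levels was not tested, and directions below refer to the libraries as labelled. All intervals on counts and shares cover counting error only.

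The gate was narrowed mainly by its limits on C1q and Cd3. Of the cells with at least 3 UMIs of the 4 summed genes, 324 in the Irg1+/+ and 322 in the Irg1-/- library, 304 and 305 also had Csf1r. Cells that failed on C1q alone numbered 72 and 99, and cells that failed on Cd3 alone numbered 41 and 42. Most members had UMIs of several of the summed genes: all 4 in 19 and 20 cells, 3 in 30 and 25, 2 in 22 and 21, and a single gene in 15 and 11. Ceacam1 alone admitted 6 and 7 cells, and 8 cells in each library had a UMI of neither Ace nor Adgre4.

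Ace, the angiotensin-converting enzyme (GRCm38, chr11:105967945-105989964, plus strand), stood at 692 CPM in the Irg1+/+ and 540 CPM in the Irg1-/- members, against 6.57 and 2.58 CPM in T cells, where it serves as a measure of free RNA. It was seen in 74.4% and 76.6% of members. Adgre4, an adhesion G protein-coupled receptor of myeloid cells (chr17:55749984-55853662, plus strand), was at 500 and 409 CPM. Ceacam1, a cell adhesion molecule (chr7:25461707-25477603, minus strand), was at 581 and 546 CPM, and Treml4, a receptor that binds dead cells (chr17:48264295-48275360, plus strand), at 180 and 197 CPM. Csf1r, the receptor that monocytes need for growth and survival, was at 1346 and 1248 CPM. Ace and Adgre4 stood lower in the Irg1-/- library and the other 3 genes closer together, and Treml4 was the scarcest of the summed genes, seen in 41.9% and 48.1% of members.

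Promoters of 15 genes that mark these cells, in 18 windows of 250 bases before to 50 bases after a start site, were searched on both strands for the letters of an Nr4a1 site (AAAGGTCA), an Oct-factor octamer (ATGCAAAT), a C/EBP site (TTGCGCAA) and a PU.1 site (GAGGAAGT). The first 3 were in no window, and they occur in 1.51%, 1.74% and 0.183% of 32851 RefSeq windows of the mouse genome. The PU.1 letters, found in 3.20% of all windows, were in the Adgre4 window alone, which is shown because it is the single match (RefSeq, GRCm38.p6, chr17:55749734-55750033, plus strand; capitals mark the match, which reads GAGGAAGT on the minus strand). These matches are a description of letters, not of binding.
Adgre4 promoter: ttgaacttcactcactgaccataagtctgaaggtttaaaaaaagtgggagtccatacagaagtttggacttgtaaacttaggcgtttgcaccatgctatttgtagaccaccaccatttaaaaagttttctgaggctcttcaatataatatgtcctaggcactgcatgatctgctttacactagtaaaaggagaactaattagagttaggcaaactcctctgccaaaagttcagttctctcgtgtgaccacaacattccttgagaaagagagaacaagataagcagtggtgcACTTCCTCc

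Cells just outside the gate were described to show where its limits fell. With a summed count of 2 UMIs, just short of the limit, 30 Irg1+/+ and 38 Irg1-/- cells had Itgal at 497 and 444 CPM. At 3 UMIs, just inside, 21 and 14 cells had Itgal at 690 and 521 CPM, and at 4 UMIs 10 and 12 cells had it at 1316 and 554 CPM. With none of the 4 genes, 429 and 595 cells stood at 283 and 322 CPM. Itgal was thus higher with each UMI from 2 to 4 in both libraries, with no gap at the limit, while Spn was lower just inside (89.4 and 14.1 CPM) than just outside (114 and 61.9 CPM) and reached 207 and 153 CPM at 4 UMIs. On the side of C1q, 22 and 7 members without a C1q UMI had Itgal at 1261 and 1373 CPM, 64 and 70 members with 1 to 2 UMIs had it at 1198 and 979 CPM, and 53 and 72 cells with 3 to 5 UMIs, outside the gate, had it at 849 and 596 CPM. The plots of marker levels by gate count show these steps beside those of Cx3cr1.

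**Figure D1:**
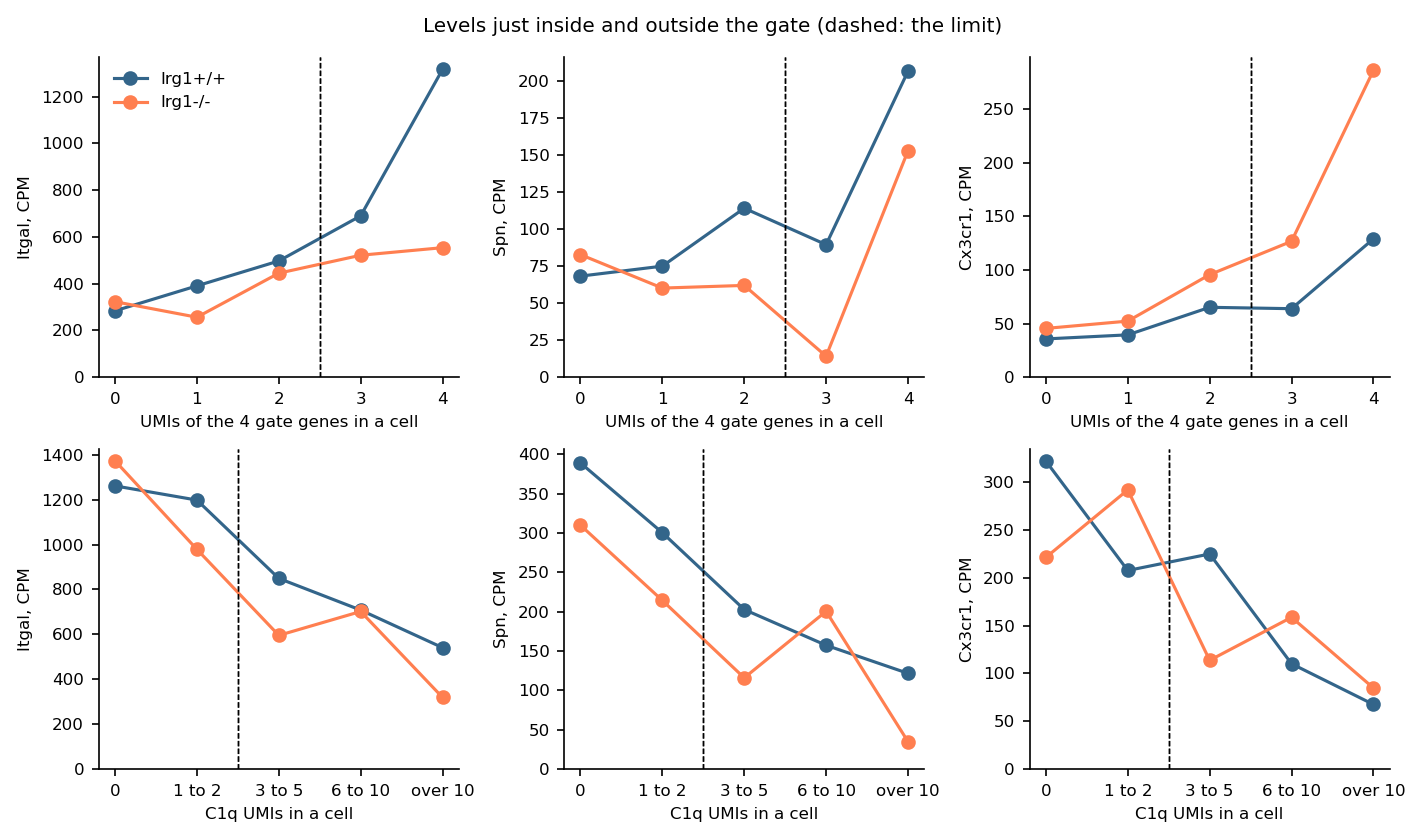
CPM of Itgal, Spn and Cx3cr1 (columns) in cells grouped by the summed UMIs of Ace, Adgre4, Treml4 and Ceacam1 (top row) or by C1q UMIs (bottom row), one line for each library, with the dashed line at the limit of the gate. Itgal was at 283 (Irg1+/+) and 322 CPM (Irg1-/-) without any of the 4 genes and at 690 and 521 CPM with 3 UMIs of them, while Spn moved unevenly around the limit.

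Against the label, the markers that the gate did not use were compared with 3 other gates of the same libraries. Classical monocytes were cells with Csf1r, at least 2 UMIs of Vcan (versican, a matrix proteoglycan of classical monocytes), none of the 4 summed genes, at most 2 C1q UMIs and no Cd3 (77 and 103 cells). C1q macrophages had Csf1r, at least 10 C1q UMIs, none of the 4 genes and no Cd3 (200 and 271 cells), and T cells had at least 2 Cd3 UMIs, no Csf1r and at most 2 C1q UMIs (529 and 310 cells). UMIs were summed for each gate and library, and the 2 sums of nonclassical monocytes were tested against the 2 sums of each of the other monocyte and macrophage gates with edgeR's quasi-likelihood test and Benjamini-Hochberg adjustment over 8943 genes. Nothing in the labels makes the pooled libraries biological replicates of a gate, so these p-values measure the spread between 2 sums, with 2 residual degrees of freedom.

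Itgal (GRCm38, chr7:127296260-127335138, plus strand) was at 1212 CPM (1098 to 1334) in Irg1+/+ and 1005 CPM (902 to 1116) in Irg1-/- nonclassical monocytes. Classical monocytes stood at 304 and 300 CPM, C1q macrophages at 129 and 140 CPM, and T cells, which also use LFA-1, at 535 and 536 CPM. Both nonclassical sums lay above every other sum, and the log2 fold change was 1.80 over classical monocytes (SE 0.15, adjusted p = 5.91e-09) and 3.10 over macrophages. When each cell was thinned to 2000 UMIs, leaving out 8 and 3 members with fewer, 84.6% and 75.7% of nonclassical monocytes had an Itgal UMI, against 44.8% and 44.1% of classical monocytes and 24.6% and 25.3% of macrophages. The median member had 4 Itgal UMIs in each library, the highest had 26 and 20, and 9 and 7 members had none.

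Spn (chr7:127132232-127137823, minus strand) was at 320 CPM (263 to 385) and 221 CPM (174 to 276) in nonclassical monocytes, against 16.2 and 25.3 CPM in classical monocytes, 40.7 and 38.7 CPM in macrophages and 253 and 275 CPM in T cells. It rose by 3.54 on the log2 scale over classical monocytes (SE 0.31, adjusted p = 1.57e-08) and by 2.81 over macrophages. Its level was no higher than in T cells in the Irg1-/- library, so it sets these cells apart among the myeloid gates and not from lymphocytes. At 2000 UMIs it was seen in 47.4% and 25.7% of nonclassical and in 4.5% and 3.2% of classical monocytes.

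Cx3cr1 (chr9:119901616-120069879, minus strand) was at 232 and 287 CPM in nonclassical, 9.70 and 50.7 CPM in classical monocytes and 64.9 and 52.4 CPM in macrophages. The log2 fold change over classical monocytes was 2.88 (SE 0.33, adjusted p = 9.42e-07). Pou2f2, which encodes the transcription factor Oct-2 (chr7:25087344-25179726, minus strand), stood at 407 and 409 CPM, against 87.3 and 84.5 CPM in classical monocytes, a log2 fold change of 2.18 (SE 0.20, adjusted p = 4.11e-08). For both genes the nonclassical sums were clear of all sums of the other monocytes and macrophages.

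**Figure D2:**
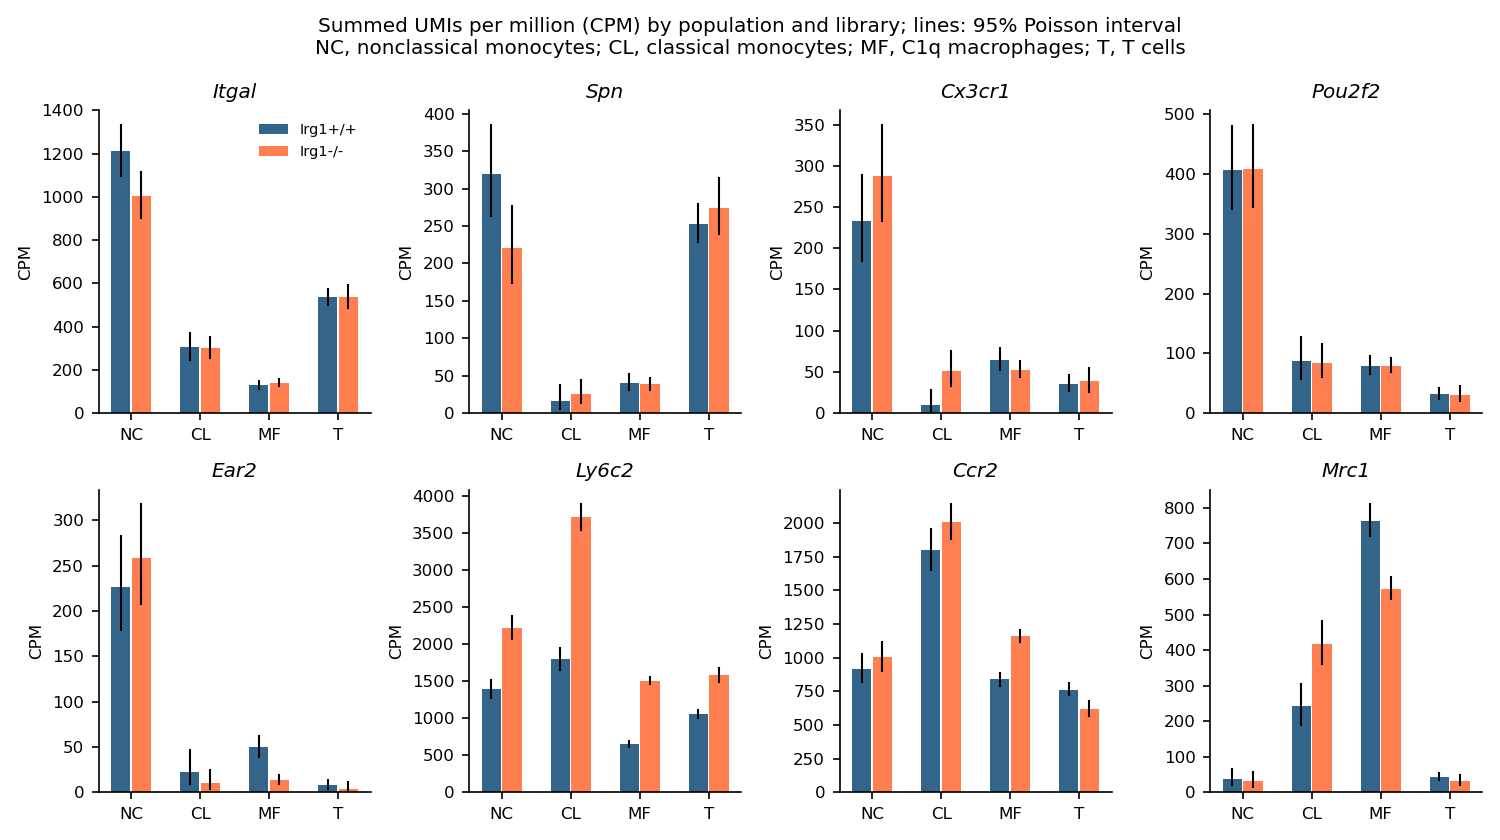
CPM of 8 genes (bars) with 95% Poisson intervals (lines) in nonclassical monocytes (NC), classical monocytes (CL), C1q macrophages (MF) and T cells (T), 1 bar for each library. Itgal, Spn, Cx3cr1, Pou2f2 and Ear2 were higher in NC than in CL and MF, Ly6c2 and Ccr2 were highest in CL within each library, and Mrc1 was at 37.8 and 31.9 CPM in NC against 764 and 573 CPM in MF.

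Beyond these markers, 285 genes were higher in nonclassical than in classical monocytes (3.19% of those tested) and 347 were lower (3.88%), with a median log2 fold change of -0.01 over all tested genes. Of 21 genes of the Ly6C-low monocyte programme, 16 were higher and none lower, with a median of 1.38. Ear2, a ribonuclease of the eosinophil-associated family, rose by 3.88 on the log2 scale (227 and 258 CPM against 22.6 and 10.6 CPM, SE 0.45, adjusted p = 9.99e-07). Pglyrp1, a peptidoglycan recognition protein, rose by 3.07, Gngt2, a G protein gamma subunit, by 2.34, and Klf2, a factor that controls migration of blood cells, by 1.22. Nr4a1 was abundant in all 3 gates and its increase was modest, from 1041 and 1016 CPM in classical to 1671 and 1495 CPM in nonclassical monocytes (log2 fold change 0.56, SE 0.12, adjusted p = 0.00283). S1pr5, a receptor for the lipid sphingosine 1-phosphate that guides exit from tissue, had 15 and 12 UMIs in nonclassical monocytes, none in the Irg1+/+ and 1 in the Irg1-/- classical monocytes. Among the programme genes that did not pass the test, Itgax (CD11c) was at 238 and 180 CPM against 181 and 114 CPM, and Cd36, a fatty acid transporter, at 418 and 441 CPM against 572 and 139 CPM.

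Cd300e and Eno3 of the same programme were also among the genes with the largest fold changes, beside several genes outside that list. Cd300e, an activating receptor of monocytes, had 59 UMIs in nonclassical and 1 in classical monocytes over both libraries, a ratio of 67.1 with a counting interval of 11.6 to 2694. Hpgd, which breaks down prostaglandin E2, had 66 and 3 UMIs, a ratio with a counting interval of 8.20 to 124. Both were lower in the Irg1-/- than in the Irg1+/+ members, Cd300e at 40.7 against 131 CPM and Hpgd at 58.1 against 134 CPM. Ldlrad3, a membrane protein of the LDL receptor family, had 101 UMIs against 7, a ratio of 16.4 (7.68 to 41.8). Slc12a2, a sodium, potassium and chloride cotransporter, rose by 3.79, Eno3, the muscle form of enolase, by 3.69, Rras, a small GTPase that acts on integrins, by 3.44, and Scnn1a, a subunit of the epithelial sodium channel, by 3.29 on the log2 scale. Zmynd15 rose by 4.07, on 33 UMIs in nonclassical and 2 in classical monocytes, but 10 of its 18 Irg1+/+ UMIs and 11 of its 15 Irg1-/- UMIs came from 1 cell in each library, and with cells thinned it stood at -0.56; the call was lost there and in 4 other alternatives, among them leaving out members with C1q UMIs or other-cell markers.

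Siglech and Il12b met the same rule, but nearly all of their UMIs came from single cells. Siglech, a lectin of plasmacytoid dendritic cells, had 39 UMIs in the Irg1+/+ members, of which 38 were in 1 cell, and 12 in the Irg1-/- members, of which 11 were in 1 cell. Il12b, which encodes a subunit of interleukin 12, had 40 UMIs in the Irg1-/- members, of which 38 were in 1 cell. Their fold changes therefore describe single cells and not the population, and both calls were lost with the Ly6c2 gate, among other alternatives.

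Adhesion and migration genes moved both ways, 8 of 26 higher and 5 lower than in classical monocytes, with a median of 0.42. Besides Itgal, Spn and Cx3cr1, Itga4, the alpha chain of VLA-4, rose by 1.31 (1520 and 1272 CPM against 478 and 585 CPM, SE 0.13, adjusted p = 2.11e-07), Selplg, the ligand of P-selectin, by 0.69, and Cd47, a signal that protects from phagocytosis, by 0.61, of which DESeq2 and the fit without the library as a term called neither of the last 2 (adjusted p by DESeq2 = 0.159 and 0.0797). The fold change of Selplg changed sign with the Ly6c2 gate. Itgb2, the beta chain that pairs with Itgal, was at 1378 and 1228 CPM in nonclassical and 1167 and 1102 CPM in classical monocytes and did not pass the test (log2 fold change 0.13, adjusted p = 0.627). Ccr7, the receptor for homing to lymph nodes, rose by 2.29, but 1 cell held 51.1% and 53.1% of its UMIs. Leaving out the cells with dendritic markers (-1.19) bears on it by construction, since Ccr7 is itself among those markers. Among the chemokine receptors of inflammatory monocytes, Ccr1 fell by 1.68 and Ccr2 by 1.05 on the log2 scale.

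Transcription factors and Fc receptor genes also moved both ways. Of 26 transcription factors 5 rose and 4 fell, with a median of 0.15: Pou2f2, Klf2, Hes1, Klf13 and Nr4a1 were higher, while Maf fell by 1.51 and Zeb2 by 1.01, factors known from macrophages and classical monocytes. Hes1, a target of Notch signalling, rose by 1.38 (SE 0.37, adjusted p = 0.0209), but it was at 78.5 CPM in the Irg1+/+ and 215 CPM in the Irg1-/- members, and the call was lost by DESeq2 (adjusted p = 0.119) and without the library as a term (adjusted p = 0.0865). The call of Klf13 was likewise lost by both, and those of Nr4a1 and Zeb2 were lost without C1q UMIs and with the Ly6c2 gate, respectively. Of 16 genes of Fc receptors and their kinases 4 rose and 2 fell, with a median of 0.11. Fgr, a Src-family kinase, rose by 0.56, and Fcgr4, the receptor for IgG that marks nonclassical monocytes in blood, by 0.58 (529 and 421 CPM against 226 and 372 CPM, unadjusted p = 0.00353, adjusted p just under 0.05), a call that DESeq2 did not make (adjusted p = 0.210); the call of Fgr was lost there too, and both were lost without the library as a term. Lilra5, an activating receptor that signals through the Fc gamma chain, had 23 UMIs in nonclassical and none in classical monocytes, at least 8.72-fold higher against a floor of 3 UMIs over both libraries. Fcgr1, the high-affinity receptor for IgG, fell by 1.55 and Fcgr2b, the inhibitory receptor, by 0.88, the latter call lost with the Ly6c2 gate. Genes of cell survival gave no call in 16 tested.

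Genes of classical monocytes were lower in 7 of 14 cases and higher in 1, with a median of -0.57. Ly6c2, which encodes Ly6C, was at 1389 and 2218 CPM in nonclassical and 1797 and 3710 CPM in classical monocytes, a log2 fold change of -0.63 (SE 0.11, adjusted p = 0.000506; 0.371 without the library as a term). Fn1 (fibronectin) fell by 1.99, F13a1, a coagulation factor of monocytes, by 1.06 and Ms4a4c by 0.71. Ifitm6 was the member that rose, by 0.61. The Ly6c2 gate lost the calls of F13a1 and Ms4a4c, and DESeq2 and the fit without the library as a term lost that of Ifitm6. Plac8, a gene of immature monocytes, was high in both, at 4109 and 4692 CPM against 2922 and 3687 CPM, and did not pass the test (adjusted p = 0.135). The Irg1-/- members thus had more Ly6c2 than the Irg1+/+ classical monocytes, and the sums of the 2 gates were ordered by gate only within a library.

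The plot of cells by UMI count shows the overlap between single cells. The median member had 3 Ly6c2 UMIs in the Irg1+/+ and 6 in the Irg1-/- library, the highest had 48 and 78, and 19 and 10 members had none. Spn was not captured in 41 of 86 and 42 of 77 members, and Cx3cr1 not in 45 and 38.

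**Figure D3:**
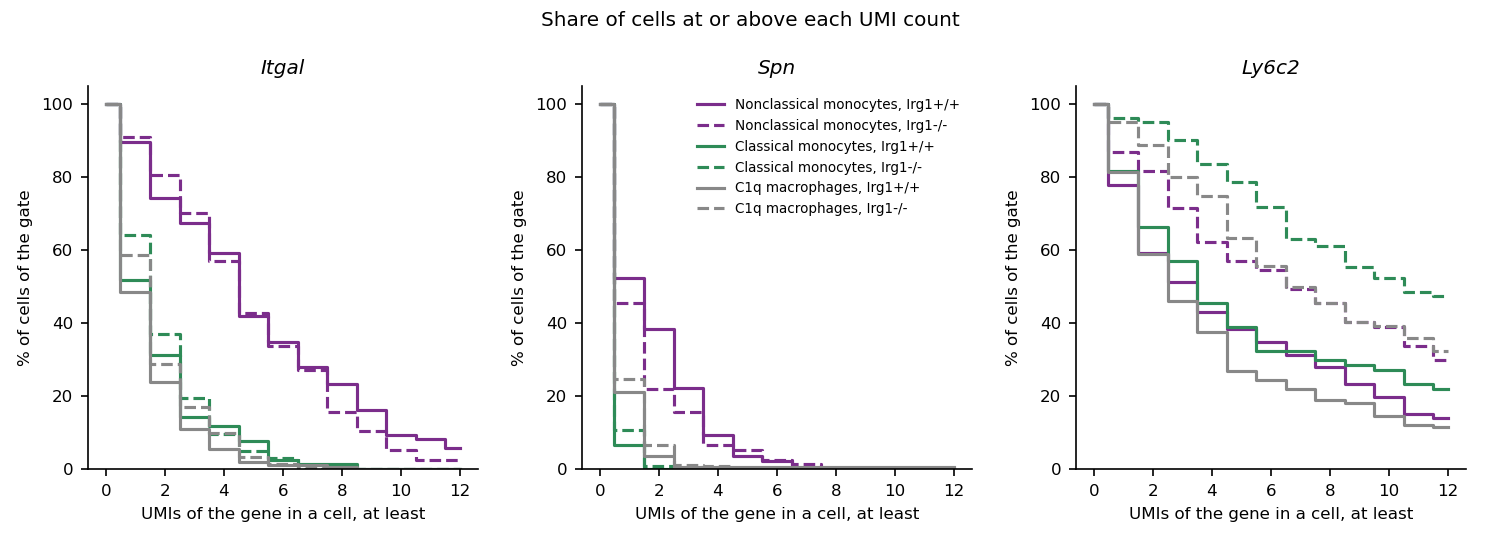
Percent of cells (y) with at least a given number of UMIs (x, 0 to 12) of Itgal, Spn and Ly6c2 in nonclassical monocytes, classical monocytes and C1q macrophages, solid for Irg1+/+ and dashed for Irg1-/-. The nonclassical lines lie above the others for Itgal and Spn, while for Ly6c2 all gates overlap.

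Cytokine and chemokine genes were the group with the most calls in the lower direction, 17 of 32 tested, with 1 higher (Il12b, the gene carried by a single cell) and a median of -1.06. Ccl2, the ligand of Ccr2, was at 232 and 160 CPM in nonclassical and 960 and 779 CPM in classical monocytes and fell by 2.22 (SE 0.14, adjusted p = 2.52e-10). Ccl7 fell by 2.22, Cxcl2, which attracts neutrophils, by 1.94, Tnf by 1.59 and Vegfa, which drives vessel growth, by 1.58. Il1b fell by 0.68 and remained among the abundant transcripts, at 2223 and 1971 CPM. Tnfsf9, on 4 UMIs, was at -3.26, a call lost without members with C1q UMIs, without those with other-cell markers and with cells thinned. Il10, on 5 UMIs, was at -2.89 (adjusted p = 0.0341), a call lost in 9 alternatives, among them DESeq2 and the fit without the library as a term (adjusted p = 0.116). Ccl24, an eosinophil chemokine, had 3 UMIs against 38, a ratio of 11.1 in favour of classical monocytes (3.53 to 56.4), and the call was lost without the library as a term, with the Ly6c2 gate, and without members with C1q UMIs or other-cell markers. The Ly6c2 gate also lost the call of Il1b.

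Receptors and growth factors were also among the genes with the largest decreases. Cd200r1, an inhibitory receptor, had no UMI in nonclassical and 45 in classical monocytes, at least 13.2-fold lower against the floor of 3 UMIs. Edn1, which encodes endothelin 1, had 1 UMI against 43 (37.8-fold lower, 6.43 to 1528) and Hbegf, an EGF-family growth factor, had 1 against 34 (29.9-fold lower, 5.02 to 1215). Without members with C1q UMIs the calls of Cd200r1, Edn1 and Hbegf were lost, that of Edn1 also with the Ly6c2 gate, and that of Hbegf also with cells thinned and without members with other-cell markers, while DESeq2 gave Hbegf no adjusted p. Mrc1, the mannose receptor of tissue macrophages, was at 37.8 and 31.9 CPM against 242 and 418 CPM and fell by 3.34 (SE 0.31, adjusted p = 3.24e-08). Sdc4, a heparan sulfate proteoglycan, fell by 3.13, Spp1 (osteopontin) by 2.92, Dab2, an endocytic adaptor of macrophages, by 2.76 and Clec5a, a lectin of myeloid cells, by 2.74. S100a9, on 7 UMIs, was at -2.67, a call lost in 5 alternatives: by DESeq2 (adjusted p = 0.0718), without the library as a term (adjusted p = 0.176), at a summed count of 2 UMIs, without members with C1q UMIs and with cells thinned.

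Of 16 glycolysis genes tested, 13 were lower, 2 gave no call and 1, Eno3, was higher, with a median of -0.84, and their summed level was 4723 and 4009 CPM in nonclassical, 8633 and 6449 CPM in classical monocytes. Slc2a1, the glucose transporter GLUT1, fell by 1.46 (128 and 69.7 CPM against 314 and 209 CPM, SE 0.23, adjusted p = 9.71e-05), Pgk1 by 1.32, Aldoa by 0.81, and Gapdh and Ldha by 0.78 each. Eno3 rose 3.69 from 4 UMIs in classical to 49 in nonclassical monocytes. MHC class II genes were lower in 4 of 10 cases and higher in none, with a median of -0.51: H2-Ab1 fell by 0.48 and Cd74, the invariant chain, by 0.41, neither called by DESeq2 or with up to 10 C1q UMIs. Without members with C1q UMIs the calls of Slc2a1, Aldoa, Gapdh and Ldha were lost, and with cells thinned that of Pgk1. Complement and coagulation genes were lower in 6 of 17 and higher in none (median -0.52), led by C3ar1, the receptor for C3a, which fell by 2.45.

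The remaining groups had medians nearer to 0 than these. Lipid and scavenger genes split, 3 higher and 5 lower of 20 (median -0.01), with Pparg, a nuclear receptor of lipid handling, at 2.68, Scarb1, a receptor for HDL, at 0.91 and Lipa, the lysosomal lipase, at 0.90, while Lpl fell by 2.06 and Msr1, a scavenger receptor, by 1.42. Type I interferon genes gave none higher and 5 lower of 41 (median -0.19), and genes of the type II interferon response 2 higher and 3 lower of 19 (median -0.13). Irf1 rose by 0.67 and Irgm1 by 0.65, while Gbp2 fell by 0.95. Of these genes, Scarb1, Lipa, Irgm1 and Gbp2 were not called by DESeq2, Scarb1, Irf1 and Irgm1 not without the library as a term, and Pparg not without members with C1q UMIs. MHC class I genes gave 2 higher and 1 lower of 18 (median -0.16), genes of itaconate and the Nrf2 response 0 and 1 of 18 (median -0.23), genes of dissociation stress 1 and 6 of 20 (median -0.19), checkpoint and costimulation genes 0 and 2 of 9, and Notch genes 1 and 1 of 8. Cell cycle genes gave no call in 13, with Mki67 at 23.3 and 37.7 CPM against 19.4 and 21.1 CPM.

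**Figure D4:**
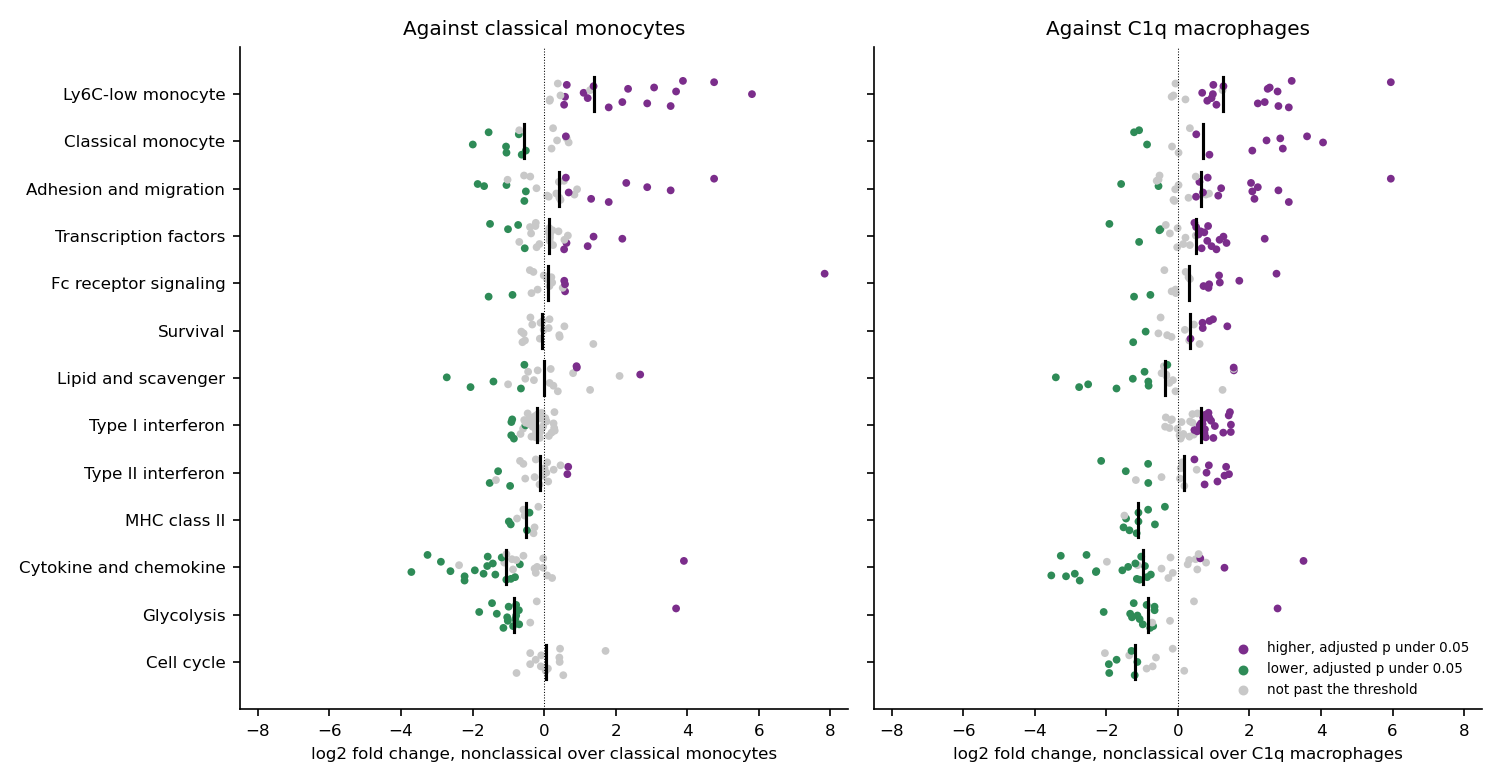
Fitted log2 fold changes of the genes of 13 lists in nonclassical monocytes against classical monocytes and against C1q macrophages (x axes), purple where higher and green where lower at an adjusted p under 0.05, grey otherwise, with a black tick at each list's median. The Ly6C-low list has its median at 1.38 and 1.25, and the glycolysis, cytokine and MHC class II lists have medians below 0 in both panels; Lilra5, at 7.84, has no classical UMI and its position is no bound.

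Set beside C1q macrophages, 999 genes were higher (11.2% of those tested) and 705 lower (7.88%) in nonclassical monocytes, with a median of -0.04. Nonclassical sums enter both contrasts, so the contrasts are not independent and are given side by side. The Ly6C-low programme again had 16 of 21 genes higher and none lower (median 1.25). Hpgd led with 6.24, from 4 UMIs in macrophages, before Cyp2ab1, a cytochrome P450, with 5.11, Ldlrad3 with 4.62, Scnn1a with 4.19, Slc12a2 with 4.09 and Hp, which encodes haptoglobin, with 4.06. Classical monocyte genes, lower against classical monocytes, were here higher in 8 of 14 cases and lower in 3 (median 0.70): Ifitm6 rose by 3.61, Chil3 by 2.93 and Plac8 by 2.48 on the log2 scale, while Fcgr1 fell by 1.22, Cebpa by 1.08 and Fn1 by 0.86. Within each library, Ly6c2 and Ms4a4c thus lay below classical monocytes and above macrophages, an order that did not hold across libraries.

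Against macrophages, MHC class II genes were lower in 9 of 10 (median -1.13), while MHC class I genes gave 2 higher and 2 lower of 18 (median 0.05). H2-Ab1 was at 2470 and 2834 CPM against 7183 and 6986 CPM, a log2 fold change of -1.35. Glycolysis genes were lower in 12 of 16 (median -0.82), cytokine and chemokine genes in 17 of 32 with 3 higher (median -0.97), and cell cycle genes in 6 of 13 with none higher and 7 not called (median -1.20), Mki67 by 1.20. Lipid and scavenger genes were lower in 9 and higher in 2 of 20 (median -0.36), Lpl, the lipoprotein lipase, by 2.76 and Abca1, a cholesterol exporter, by 2.51, and Fc receptor genes were higher in 7 and lower in 2 of 16 (median 0.32). Transcription factors were higher in 14 of 26 and lower in 4 (median 0.51), and adhesion genes higher in 13 and lower in 2 of 26 (median 0.65), Itga4 by 2.14. Type I interferon genes were higher in 24 of 41 and lower in none (median 0.65), but the count was 11 without members that had a Vcan UMI, 10 without the library in the fit and 12 by DESeq2.

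Between the libraries, nonclassical monocytes made up 1.37% (1.10% to 1.69%) of Irg1+/+ and 1.33% (1.05% to 1.66%) of Irg1-/- cells, a difference within counting error. As a share of the nonclassical, classical and macrophage gates together they were 23.7% (19.4% to 28.4%) of 363 cells and 17.1% (13.7% to 20.9%) of 451 cells. With 1 library a genotype, this lower share in the Irg1-/- library was not tested. Among 4966 genes with at least 20 UMIs in the members, 128 (2.58%) were at least 2-fold higher and 157 (3.16%) at least 2-fold lower in the Irg1-/- library, with a median log2 ratio of -0.01. Ratios above 0 were found for 2229 of the 4966 genes, the background for the counts of lists below. Itgal was lower by a log2 ratio of -0.27 (-0.48 to -0.06) and Spn by -0.53 (-0.98 to -0.10), Cx3cr1 was at 0.30 (-0.13 to 0.75), Pou2f2 at 0.01 and Nr4a1 at -0.16. The sign of the Itgal ratio turned without members that had a C1q UMI (0.14) or markers of other cells (0.19), and that of Spn without the latter (0.14). For the Ly6C-low list the median ratio was -0.26, with 8 of 21 genes higher, a share near that background. The median moved to -0.06 without members with dendritic markers and to -0.09 at a summed count of 2 UMIs. Without members that had a C1q UMI it was -0.43, with 4 of 15 genes higher.

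Ly6c2 was higher in the Irg1-/- library in each of the 3 myeloid gates, with a log2 ratio of 0.67 (0.51 to 0.84) in nonclassical monocytes, 1.05 in classical monocytes and 1.20 in macrophages. T cells held 1605 Ly6c2 UMIs of 1521709 in the Irg1+/+ and 1226 of 775765 in the Irg1-/- library, also a higher share in the latter. Hes1 was at 78.5 and 215 CPM, a ratio of 1.44 (0.80 to 2.15). Type I interferon genes were higher in the Irg1-/- library in 33 of 40 cases, with a median ratio of 0.28, against 0.76 in classical monocytes and 0.61 in macrophages. In nonclassical monocytes this median was 0.57 (36 of 40 higher) at a summed count of 2 UMIs. It was 0.17 (27 of 35 higher) without members that had a Vcan UMI. In this list 1 gene was at least 2-fold higher, Ifi44 (1.37), and 1 at least 2-fold lower, Ifit1 (-1.05). For Ifit1, 1 cell held 55 of 71 Irg1+/+ UMIs, and the ratio was 0.17 without the top cells. Isg15 of the list was at 264 and 351 CPM (0.41, but -0.33 among members without a C1q UMI). Other genes, outside this list, were named by their ratios. Iigp1, an interferon-induced GTPase, was at 58.1 and 189 CPM (1.67, and 2.71 without the top cells, since 1 cell held 13 of its 20 Irg1+/+ UMIs). Slfn4 was at 154 and 447 CPM (1.53) and Ifitm1 at 69.8 and 192 CPM (1.44). Among the 22 and 7 members with no C1q UMI, however, 6 of 16 type I interferon genes were higher and the median was -0.32.

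The type II interferon list had a median ratio of 0.00 in nonclassical monocytes, with 8 of 17 genes higher, against 0.68 in classical monocytes and 0.69 in macrophages. The median was 0.49 with cells thinned (12 of 14 higher), 0.35 with up to 10 C1q UMIs (17 of 18 higher) and -1.22 without members with other-cell markers (2 of 11 higher). Cxcl9 and Cxcl10, the chemokines that draw T cells by Cxcr3, and Gbp2, a guanylate-binding protein, were lower in Irg1-/- nonclassical monocytes and higher in Irg1-/- classical monocytes, while Irf1 was at 0.41 (0.23 to 0.59). With up to 10 C1q UMIs the ratios of all 3 turned, to 0.50 for Cxcl9, 0.26 for Cxcl10 and 0.24 for Gbp2, and with cells thinned those of Cxcl9 (0.55) and Gbp2 (0.22) did, and 1 cell held 41.4% of the Irg1-/- Cxcl9 UMIs. Whether these ratios differ between the gates was not tested, since each ratio rests on 1 library a genotype.

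MHC class II genes were higher in the Irg1-/- members in 7 of 8 cases (median 0.21), Cd74 by 0.52 and H2-Aa by 0.47, yet among the 16 and 18 members without markers of other cells the median was -0.27, with Cd74 at -0.81 and H2-Aa at -0.23. With cells thinned the MHC class II median was 0.02 (4 of 7 higher), and with up to 10 C1q UMIs it was 0.42 (10 of 10 higher). It was 1.39 (4 of 5 higher) in members without a C1q UMI. Glycolysis genes were lower in 15 of 15 (median -0.41), Slc2a1 by a ratio of -0.86, Pgk1 by -0.66 and Aldoa by -0.41. The median was -0.45 in classical monocytes and -0.20 in macrophages, and -0.16 when the summed UMIs were lowered to 2 and -0.09 when cells were thinned. Among members without a C1q UMI it turned to 0.47, with 4 of 6 genes higher. Cytokine genes had a median of -0.24 with 9 of 26 higher, MHC class I genes 0.08 with 14 of 18 higher, and the genes of itaconate and the Nrf2 response 0.10 with 8 of 15 higher. These medians also turned. For cytokine genes the median was 0.04 (17 of 28 higher) at a summed count of 2 UMIs and 0.02 with cells thinned. For MHC class I genes it was -0.47 (2 of 12 higher) without members with other-cell markers and -0.006 (8 of 17 higher) without Vcan members. For the itaconate and Nrf2 genes it was -0.19 (6 of 14 higher) at a summed count of 4 and -0.21 (4 of 13 higher) without Vcan members. Their median was also negative without C1q UMIs (-0.09), with up to 10 C1q UMIs (-0.04) and with cells thinned (-0.06). The same held without members with other-cell (-0.09) or dendritic markers (-0.03).

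Genes that tissue handling is known to induce moved with the same contrast. Of 19 genes of dissociation stress 17 were higher in the Irg1-/- members, with a median of 0.32, and the medians in classical monocytes (0.24) and macrophages (0.33) were alike. The count was 9 of 15 (median 0.23) without members with C1q UMIs, where 484 of all 1012 genes were higher. It was also 9 of 15 (median 0.26) without members with other-cell markers, where 534 of all 1062 genes were higher. Fos was at 0.42 and Btg2 at 0.84. Hspa1a and Hspa1b, heat shock proteins, had ratios of 2.02 and 1.61, and 1 cell held 40.2% and 43.0% of their Irg1-/- UMIs; without the top cell of each library the ratios were 1.42 and 0.92, and without members with other-cell markers that of Hspa1b was -0.13. The summed markers of melanoma cells were at 166 CPM in the Irg1+/+ and 34.8 CPM in the Irg1-/- members (57 and 12 UMIs, Dct the most abundant, Tyr at 0 in the latter), next to 196 and 38.7 CPM in T cells. The part of handling and of free tumor RNA in the ratios was not tested.

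By ratio, Serpinb6b (2.01), Gadd45g, a stress-induced regulator of growth arrest (1.75; -0.75 without members with other-cell markers), and Axl, a receptor for dead cells (1.55; -0.06 with cells thinned), were the others that stood highest in the Irg1-/- members, though 1 cell held 35 of the 70 Irg1-/- Serpinb6b UMIs and the ratio without the top cells was 1.21. At the low end were Spp1 (-1.80), Cd300e (-1.65, -2.67 to -0.79), Sltm (-1.46), Ndrg1 (-1.41), Dgkd (-1.41), Scnn1a (-1.35), Hacd4 (-1.24) and Rbm17 (-1.24). Ndrg1, a hypoxia-induced gene, had 55.6% of its Irg1+/+ UMIs in 1 cell and stood at -0.55 without the top cells and at 0.96 without members with other-cell markers. Without C1q UMIs Scnn1a turned to 0.86 and Hacd4 to 0.28. Spp1 was at 166 and 46.5 CPM, and in classical monocytes it was at 1581 and 194 CPM.

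**Figure D5:**
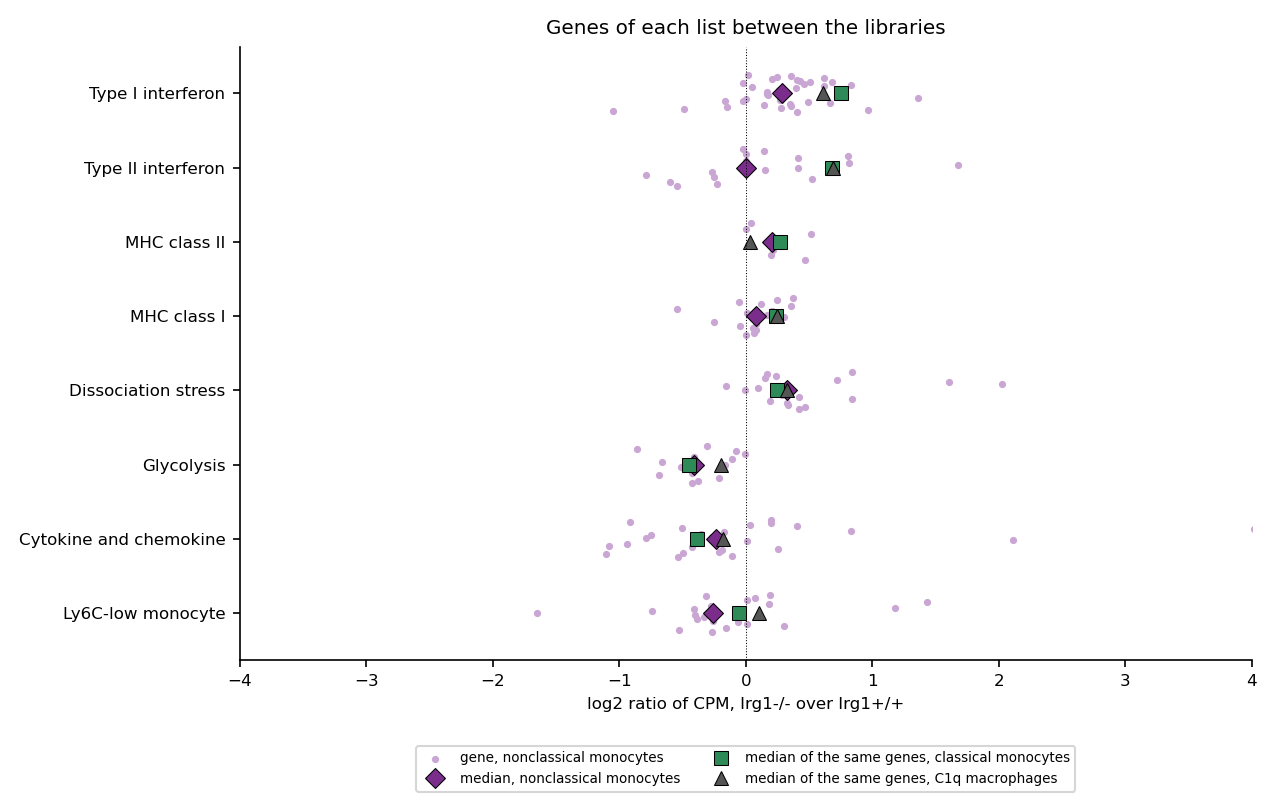
Log2 ratio of Irg1-/- over Irg1+/+ CPM for the genes of 8 lists with at least 20 UMIs in nonclassical monocytes (points), with the list median in nonclassical monocytes (diamonds), classical monocytes (squares) and C1q macrophages (triangles). The type I interferon medians are 0.28, 0.76 and 0.61, and the type II medians 0.00, 0.68 and 0.69; each genotype is 1 library, so no test applies.

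Within the gate, members with a Vcan UMI (28 and 31) differed from those without (58 and 46). Several genes differed in the direction of the contrast between the gates, and others did not. Vcan also defines the classical gate, so the split is not independent of that contrast. Members without Vcan also held fewer UMIs a cell. They had 204716 and 179069 of the 344086 and 344440 UMIs of all 86 and 77 members. The part of depth was not tested. Members without Vcan had Itgal at 1470 and 1279 CPM, against 832 and 708 CPM with Vcan. Spn was at 376 and 363 CPM against 237 and 66.5 CPM, Eno3 at 132 and 94.9 CPM against 7.18 and 24.2 CPM, Nr4a1 at 2144 and 1781 CPM against 976 and 1185 CPM, and Pou2f2 at 454 and 570 CPM against 337 and 236 CPM. In the opposite direction, Ly6c2 was at 1031 and 1603 CPM against 1916 and 2884 CPM and Ccr2 at 703 and 715 CPM against 1234 and 1312 CPM. The direction was the same in both libraries for each of these genes, and Vcan, whose UMIs made the split, was not compared. Hpgd was higher without Vcan in Irg1+/+ (186 against 57.4 CPM) but lower in Irg1-/- members (44.7 against 72.6 CPM). Cd74, lower in nonclassical than in classical monocytes, was higher without Vcan, at 2736 and 4440 CPM against 2504 and 3060 CPM.

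Members with neither Ace nor Adgre4, 8 in each library, had Itgal at 530 and 424 CPM, against 1301 and 1081 CPM in the others. Members with at least 2 UMIs of dendritic cell or plasmacytoid markers, 22 and 16 cells, held nearly all of the Ccr7 and Siglech UMIs, but both genes belong to the marker lists that made the split and were not compared. Their Itgal was at 943 and 507 CPM, against 1319 and 1188 CPM in the rest. Without them the comparison with classical monocytes still called Itgal, Spn, Cx3cr1 and Pou2f2 higher.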

How the data were processed

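The deposited values are UMI counts, not normalized, in 1 matrix of genes by cells a library, with 6408 (Irg1+/+) and 5896 (Irg1-/-) cells and 31253 genes. Per the labels and the study's methods, the authors sequenced 3′ BD Rhapsody libraries of 6000 sorted cells, handled barcodes with UMI-tools, aligned to GRCm38 and counted UMIs; the submitters' processing notes also name CASAVA 1.8 and Seurat. The members and gene lists were chosen with earlier results of these data known. Cells with 10% or more mitochondrial UMIs were removed (124 and 102), leaving 42105693 and 35307041 UMIs. Doublets were kept and no caller was run.

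UMIs were summed for each gate and library, and the 6 sums of 3 gates were fitted with gate and library as terms in edgeR 4.0.16 (R 4.3.3; TMM, quasi-likelihood test), for genes with at least 30 UMIs, called at a Benjamini-Hochberg adjusted p under 0.05. Tested on simulated counts of the classical contrast over 8943 genes, the fit recovered 37% of 2-fold and 91% of 4-fold changes, with 5 false calls of 133. The simulated sums were independent, with a fixed dispersion for all genes and no difference between the libraries. They held no UMIs gathered in single cells, and only genes above a minimum level were changed. These rates therefore need not hold for the real sums. Ratios between libraries had a pseudocount of 0.5 UMI. Their 95% intervals were conditional binomial (Clopper-Pearson) intervals on the counts without it, while levels in CPM had exact Poisson 95% intervals. DESeq2 1.42.0 gave an alternative fit, and other values were computed in Python 3.11.15 with scipy 1.17.1, pandas 2.3.3 and numpy 2.4.6.

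Genes were named by rule: the 12 largest and 12 smallest fold changes against classical monocytes among called genes with at least 30 UMIs in the higher group and the same sign in both libraries; the 6 largest against macrophages by the same rule; and the 8 highest and 8 lowest library ratios among genes with at least 50 UMIs and a UMI in at least 10% of cells of either library. Gate, ribosomal and predicted genes and pseudogenes were left out; genes of the lists could be named, and Acod1 always was. Alternatives changed the gate limits (summed UMIs of 2 or 4, 2 of the 4 genes, no C1q or up to 10 C1q UMIs, mitochondrial share under 5%), thinned cells to 2000 UMIs, left out the top 5% of cells by UMIs or cells with other-cell, dendritic or Vcan UMIs, took classical monocytes by Ly6c2, or changed the fit. A few genes of the lists are counted in them but not reported here by name.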

Additional observations from a re-analysis of the deposited data

Results flagged for a closer look

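Gbp2, Cxcl9 and Cxcl10 moved in opposite directions between the libraries in nonclassical and classical monocytes, with both counting intervals off 0. The log2 ratio of Irg1-/- over Irg1+/+ in nonclassical monocytes was -0.54 for Gbp2 (1331 and 914 CPM), against 0.67 in classical monocytes. For Cxcl9 it was -0.79 (1116 and 645 CPM), against 0.89. For Cxcl10 it was -0.27 (857 and 711 CPM), against 0.77. Of 363 genes compared in this way, 12 had intervals off 0 in opposite directions, and these 3 were flagged among them. Ifit1, whose ratio is given above, was another (-1.05 in nonclassical against 1.11 in classical monocytes, but 0.17 in nonclassical monocytes without the top cells). Ccl5 (-0.50 against 0.54) also stood lower in nonclassical and higher in classical monocytes. Fabp4, Cxcl3, Il1a, Egr1 and Hsp90aa1 went the other way. Fcgr4 (-0.33 in nonclassical against 0.71 in classical monocytes) and Msr1 (0.42 against -0.32), named above for their fold changes, were among the others and are given after their values were seen. With 1 library a genotype, the difference between the gates was not tested. With members of up to 10 C1q UMIs, the ratios in nonclassical monocytes were above 0 for Gbp2, Cxcl9 and Cxcl10.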

How the results depend on the processing

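The gate decided how many cells were counted. The share of nonclassical monocytes in the Irg1+/+ and Irg1-/- libraries was 1.85% and 1.98% with a summed count of at least 2 UMIs, 1.03% and 1.09% with at least 4, 0.350% and 0.121% without any C1q UMI, 2.39% and 2.76% with up to 10, 1.71% and 1.67% with cells thinned to 2000 UMIs, 0.255% and 0.311% without cells with markers of other cells, 0.923% and 0.794% without cells with Vcan, and 1.02% and 1.05% without cells with dendritic markers, so that the order of the libraries varied. Genes higher than in classical monocytes numbered 82 without C1q, 103 without other-cell markers, 111 by DESeq2, 183 without a library term and 458 against monocytes gated by Ly6c2, and lower ones 147 without C1q, 157 by DESeq2 and 206 without a library term. Against macrophages 199 were higher and 191 lower without C1q, 275 and 361 without other-cell markers, and 470 and 248 by DESeq2. The Ly6C-low genes higher than in classical monocytes numbered 11 to 19 over all alternatives, and Itgal, Spn and Cx3cr1 passed the test in each. The fitted log2 fold change against classical monocytes changed sign for Zmynd15 with cells thinned (-0.56), for Siglech with at least 2 of the 4 genes (-0.81), without dendritic markers (-0.61) and with the Ly6c2 gate (-0.56), for Ccr7 without other-cell (-0.96) or dendritic markers (-1.19), for Ndrg1 (0.68) and Fabp5 (0.036) without C1q, and with the Ly6c2 gate for Itgam (0.13), Selplg (-0.018) and Ifi204 (0.064). Sign changes of the log2 ratio between libraries were listed only for reported genes whose main interval lay off 0. Without other-cell markers the sign changed for Spn (0.14), Itgal (0.19), Gadd45g (-0.75), Hspa1b (-0.13), Ndrg1 (0.96), H2-Aa (-0.23) and Cd74 (-0.81). Without C1q it changed for Scnn1a (0.86), Hacd4 (0.28), Itgal (0.14) and Isg15 (-0.33). With cells thinned it changed for Axl (-0.058), Ndrg1 (0.13), Hacd4 (0.26), Gbp2 (0.22) and Cxcl9 (0.55). With up to 10 C1q UMIs it changed for Plac8 (-0.011), Gbp2 (0.24), Cxcl9 (0.50) and Cxcl10 (0.26). It also changed with a summed count of 2 for Cxcl10 (0.077), and without Vcan for Ndrg1 (0.10). Besides these 22 changes, 482 ratios stayed within their main interval and 96 moved out of it. Over the genes named by rule, 559 fold changes kept direction and call, 52 kept direction and lost the call, 16 gained it and 5 changed sign. A change of sign in a fold change was listed and counted only for genes called in the main fit. Leaving out the top 5% of cells by UMIs removed no member and no classical monocyte. It could therefore add little but unchanged results to these counts. Gates without C1q or other-cell markers held few cells and UMIs; otherwise the cause was not tested. The simulated fit, with 2 residual degrees of freedom, missed most 2-fold changes. Leaving out a replicate was not possible with 1 library a genotype. No paired analysis was possible because each genotype has a single library; this holds for the genotypes, while the gate contrasts were compared within libraries by the library term, with the counts without that term given above.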

Other observations

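Markers of other cells were summed over the nonclassical monocytes (CPM in Irg1+/+ and Irg1-/-). The 9 T cell markers were at 381 and 328 CPM, led by Trbc2, against 6363 and 5689 CPM in T cells, and the 9 NK cell markers at 337 and 511 CPM, led by Gzma, against 3022 and 4677 CPM in T cells. Of the 8 B cell markers, at 372 and 450 CPM, Igkc gave 94 of 128 and 122 of 155 UMIs, and Cd79a, Pax5 and Ebf1 were at 0 in both libraries. The 9 macrophage markers were at 1212 and 1167 CPM, led by Apoe with Folr2 at 0, against 3873 and 4268 CPM in C1q macrophages. The 8 conventional dendritic cell markers were at 448 and 424 CPM, led by Fscn1 and Ccr7, against 654 and 427 CPM in T cells. The 5 plasmacytoid markers were at 177 and 102 CPM, with 56 and 30 of their UMIs in 1 cell each. Neutrophil markers were at 37.8 and 90.0 CPM, platelet markers at 2.91 and 0 CPM, and the 5 erythroid markers had no UMI in either library.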
